A study of Mus musculus with 8 samples.

Results

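The comparison of Delta4-Ig with control Ig at day 3 took 6 of the 8 arrays of the series, 3 for each stimulus. Arrays were chosen by their titles. Naive CD4+ T cells, sorted as CD62L+CD44-CD25-DX5- cells from the spleen and the inguinal, axillary and brachial lymph nodes of C57BL6/NCrl mice, were cultured for 3 days in wells coated with antibody to CD3e (10 µg/ml). Soluble antibody to CD28 (1 µg/ml) was present in every culture, and the wells also carried either Delta4-Ig or control Ig, each at 5 µg/ml. Delta4-Ig is the Notch ligand Delta-like 4 fused to the constant part of an antibody. Both stimuli were run on cells of mouse 1 and mouse 2, whose age and sex the labels do not give. Mouse 1 has a second array for each stimulus, which its title calls a technical replicate and which was averaged with its partner, so the 6 arrays stand for 4 samples from 2 mice. A fusion protein fixed to plastic stands in here for a ligand on a neighbouring cell.

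Notch receptors sit on the T cell surface and are cut by a metalloprotease and then by gamma-secretase when they bind a Delta-like or Jagged ligand. The freed intracellular domain enters the nucleus, joins the DNA-binding protein RBPJ and Mastermind, and switches on genes such as those of the Hes and Hey repressors. In CD4+ T cells the pathway is known for its part in the choice between helper cell fates and in cytokine expression.

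Between 8940 and 10543 of 25697 probes were detected per array, at a detection p under 0.01. At least 2 of the 6 arrays detected 10381 probes, which were tested, and the probe with the highest mean stood for each of 7311 named genes. Values are the deposited normalized log2 intensities. The Delta4-Ig array of mouse 2 stood apart: its correlations over probes with the other arrays ran between 0.837 and 0.922, against 0.936 to 0.992 among the other 5 arrays. The values below are therefore given by array and mouse. Over probes, the technical arrays of mouse 1 differed with an SD of 0.280 with Delta4-Ig and 0.278 with control Ig, and the difference between the mice had an SD of 1.06 with Delta4-Ig and 0.753 with control Ig. The difference between the stimuli had an SD of 0.610 in mouse 1 and 0.854 in mouse 2, both below the spread between the mice with Delta4-Ig. In all, 37 of the 7311 genes (0.506%) differed at least 2-fold in opposite directions in the 2 mice.

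All 7 T cell markers on the array, among them Cd3e, Cd4 and Thy1, were detected on all 6 arrays. Their summed signal, as log2, ran from 15.38 to 16.29 with Delta4-Ig and from 15.39 to 15.71 with control Ig. Cd8a was detected on 0 arrays, whereas Cd8b1 was detected on all 6. Cd8b1 stood between 9.13 and 10.56 over the 6 arrays and was brighter than Cd4, at 7.69 to 8.26, on every array. With Delta4-Ig Cd8b1 was higher by 0.33 in mouse 1 and 0.55 in mouse 2 and did not pass the test described below. Of 6 B cell markers 5 were detected on no array, and Cd79b on 1 Delta4-Ig array. By their brightest probes, none of 6 macrophage and dendritic cell markers was detected, and a second probe of Adgre1 was detected on the 2 control Ig arrays of mouse 1. Klrd1, an NK cell receptor gene, was detected only on the arrays of mouse 2, at 9.13 with Delta4-Ig and 7.16 with control Ig. The other NK cell markers on the array, Ncr1 and Klrb1c, were detected on no array and stood at 4.69 and 5.30 on the Delta4-Ig array of mouse 2. Markers of gamma delta T cells (1 gene), neutrophils (3 genes) and erythroid cells (2 genes) were detected on no array. The part of other cells in the results below was not tested, and in bulk RNA a change in the number of cells that carry a transcript and a change in the RNA per cell cannot be told apart.

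After 3 days, cells on Delta4-Ig carried far more mRNA of the cytokines Il10 and Il21, the inhibitory receptor gene Havcr2, the pseudokinase gene Trib2 and the membrane protein gene Emp1 than cells of the same mouse on control Ig. They carried less mRNA of Dapl1, of the chemokine receptor gene Ccr6, of the transcription factor gene Eomes and of the adhesion receptor gene Cd44. With limma and the mouse as a block, 58 of the 10381 probes (0.559%) rose and 37 (0.356%) fell at an adjusted p under 0.05. Among genes, 44 of 7311 (0.602%) rose and 29 (0.397%) fell, all of them in the same direction in both mice. Rose and fell refer to this test throughout, and differences are Delta4-Ig minus control Ig in log2 units, given with the SE of limma. That SE draws mostly on the variance over all tested probes, so it is not the spread of a gene between the mice. In mouse 1 alone all 44 genes that rose differed by 1.71 to 7.28 and all 29 that fell by -6.45 to -1.82. The arrays of the 2 stimuli did not overlap for 67 of the 73 genes, where over all genes 8.44% had every Delta4-Ig array above and 7.59% every Delta4-Ig array below the control Ig arrays. The 6 that overlapped were Pygl, Ddr1, Mcf2l, Gstt1, Ticam2 and Usp18. The genes were called on these same differences, so their shared direction, their size in mouse 1 and the lack of overlap largely follow from the call. The calls depend on the processing: with limma 0 probes passed without the mouse block (298 at an unadjusted p under 0.05), 0 without the detection filter (1672 at an unadjusted p under 0.05) and 1 with no background correction.

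**Figure D1:**
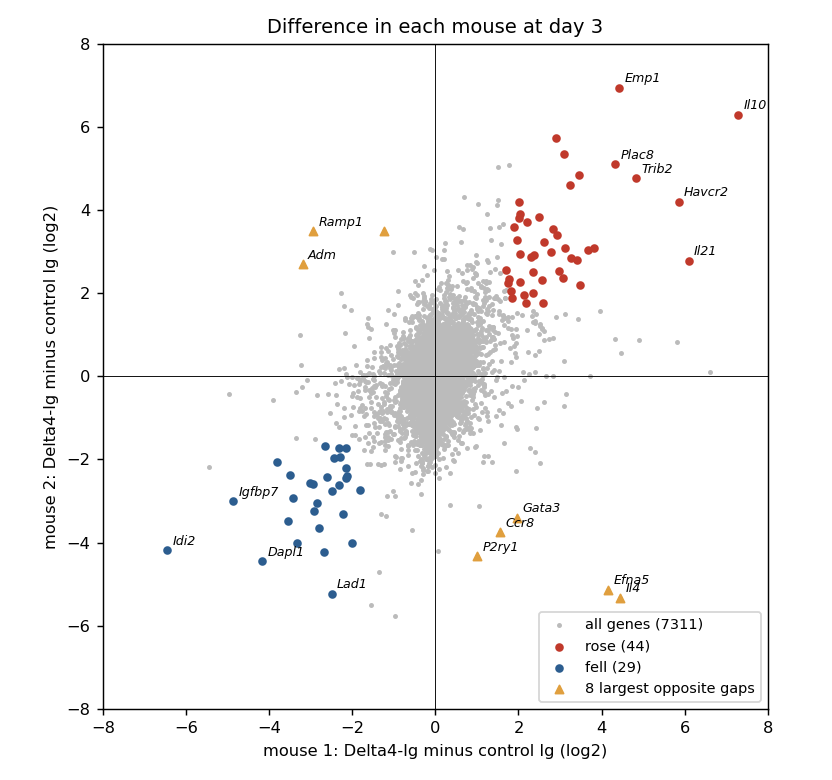
Difference between Delta4-Ig and control Ig at day 3 in mouse 1 (x axis) and mouse 2 (y axis), in log2 units, for 7311 genes in grey, the 44 genes that rose in red, the 29 that fell in blue, and the 8 genes with the largest gap between opposite differences as orange triangles. All coloured circles lie in the quadrants where both mice moved the same way, and Il4 and Efna5 lie far from the diagonal.

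Il10 encodes an anti-inflammatory cytokine and had the largest difference of all genes that passed (probe ILMN_1238505). In the order first array of mouse 1, technical array of mouse 1, array of mouse 2, Il10 stood at 12.54, 12.68 and 11.07 with Delta4-Ig, against 5.21, 5.45 and 4.77 with control Ig. Every Delta4-Ig array lay far above every control Ig array, and Il10 was detected on none of the control Ig arrays. Il10 was at least 51.1-fold higher with Delta4-Ig (limma adjusted p = 0.00197, with differences of 7.28 in mouse 1 and 6.30 in mouse 2). Such bounds set the mean of the brighter stimulus over the mice against the lowest detected signal of the other arrays. Where the probe's own value was higher, that value was used instead. The bounds hold for the mean over the mice and not for each mouse.

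Il21, a cytokine that helps B cells, stood at 10.98, 10.97 and 9.80 with Delta4-Ig, against 4.81, 4.94 and 7.02 with control Ig. The mouse 2 control Ig array carried the only detected control signal, and the rise was smaller in that mouse (6.10 in mouse 1 and 2.78 in mouse 2, adjusted p = 0.0409). Of 18 measured T helper cytokine genes, these 2 rose and 0 fell, while 6 lay higher in both mice and 4 lower, against 26.5% and 32.4% of all genes. Csf2, which encodes the growth factor GM-CSF, stood at 10.70, 11.01 and 6.03 with Delta4-Ig, against 12.44, 12.36 and 11.53 with control Ig. All of its Delta4-Ig arrays lay below the control Ig arrays, with a difference of -3.52 ± 0.80 that missed the threshold (adjusted p = 0.124). Il24 stood at 11.70, 12.01 and 12.08 with Delta4-Ig, against 5.20, 5.28 and 11.99 with control Ig. In mouse 2 Il24 was equally bright with both stimuli, whereas in mouse 1 the control Ig arrays were near background. The list median was 0.32, at 1.31 in mouse 1 and -0.70 in mouse 2, and 0.20 with genes undetected under one stimulus at their bound, beside -0.05 over all genes.

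Il4 and the transcription factor gene Gata3, which mark T helper type 2 cells, differed in opposite directions in the 2 mice. Il4 stood at 12.65, 12.74 and 5.43 with Delta4-Ig, against 8.18, 8.30 and 10.76 with control Ig, and it was detected on every array but the Delta4-Ig array of mouse 2. Gata3 stood at 11.32, 11.15 and 8.40 with Delta4-Ig, against 9.28, 9.25 and 11.80 with control Ig. With Delta4-Ig both genes were the brighter in mouse 1 and the dimmer in mouse 2. The differences were 4.46 in mouse 1 and -5.33 in mouse 2 for Il4 and 1.97 in mouse 1 and -3.40 in mouse 2 for Gata3. The chemokine receptor gene Ccr8 (1.55 in mouse 1 and -3.75 in mouse 2), the ephrin gene Efna5 (4.15 in mouse 1 and -5.13 in mouse 2) and the nucleotide receptor gene P2ry1 (1.01 in mouse 1 and -4.33 in mouse 2) had the same order of signs. Ramp1, which encodes a partner of the calcitonin gene-related peptide receptor, had the opposite order (-2.94 in mouse 1 and 3.49 in mouse 2), as did the peptide hormone gene Adm (-3.20 in mouse 1 and 2.70 in mouse 2) and Igfbp4 (-1.22 in mouse 1 and 3.50 in mouse 2). For these 8 genes a mean over the 2 mice describes neither animal, and each mouse has only 1 sample per stimulus.

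Among the genes listed as Notch targets, Hey1, a transcriptional repressor, rose. It stood at 7.57, 7.42 and 8.33 with Delta4-Ig, against 5.39, 4.87 and 5.42 with control Ig, and no control Ig array detected it. With Delta4-Ig it was at least 3.36-fold higher (difference 2.64 ± 0.33, adjusted p = 0.0163). Dtx1, an ubiquitin ligase of the pathway, stood at 6.58, 7.08 and 7.01 with Delta4-Ig, against 5.75, 5.50 and 4.77 with control Ig. Nrarp, a feedback inhibitor of Notch, stood at 7.23, 7.55 and 6.53 with Delta4-Ig, against 5.70, 5.34 and 5.61 with control Ig. Hes6, a member of the Hes family, stood at 9.25, 9.58 and 10.52 with Delta4-Ig, against 8.23, 8.25 and 8.76 with control Ig. The arrays of the 2 stimuli did not overlap for any of these 3 genes, but none passed the threshold (adjusted p of 0.102 for Dtx1, 0.174 for Nrarp and 0.121 for Hes6). Over all genes 8.44% had every Delta4-Ig array above the control Ig arrays. Of the 17 listed Notch targets 10 were measured, of which 1 rose and 0 fell, against 0.602% and 0.397% of all genes. Of the 10 measured, 5 lay higher in both mice and 0 lower, against 26.5% and 32.4% of all genes. The list median was 0.69, at 1.54 in mouse 1 and -0.06 in mouse 2, and 0.19 with genes undetected under one stimulus at their bound. Among members detected on all 6 arrays the median was -0.32. Of 13 measured genes of the receptors and the signalling machinery 0 passed the threshold, and the largest same-way difference was that of the corepressor gene Spen at -0.66 ± 0.31 (adjusted p = 0.554).

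Havcr2 encodes the inhibitory receptor TIM-3. It stood at 10.85, 10.68 and 10.44 with Delta4-Ig, against 4.96, 4.86 and 6.24 with control Ig. The 3 Delta4-Ig arrays lay close together, and the mouse 2 array was the brightest of the control Ig arrays. Havcr2 rose by 5.03 ± 0.44 (adjusted p = 0.00961). It was the only one of 10 measured inhibitory receptor genes to pass. Ctla4 differed by 1.45 ± 0.32 and Lag3 by 1.34 ± 0.32, in the same direction in both mice and short of the threshold (adjusted p of 0.115 for Ctla4 and 0.153 for Lag3). In this list 5 genes lay higher in both mice and 5 lower, against 26.5% and 32.4% of all genes. Every Delta4-Ig array lay above the control Ig arrays for 4 genes and below them for 3, against 8.44% and 7.59% of all genes. The differences ran from -1.10 to 5.03, with a median of 0.06 (0.14 with the gene undetected under one stimulus at its bound).

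Trib2 encodes a pseudokinase of the Tribbles family. It stood at 12.22, 12.09 and 12.57 with Delta4-Ig, against 7.34, 7.32 and 7.81 with control Ig. The difference was nearly equal in the 2 mice (4.83 in mouse 1 and 4.76 in mouse 2, adjusted p = 0.00407), and Trib2 was detected on all 6 arrays. Emp1, an epithelial membrane protein gene, stood at 10.11, 9.90 and 12.43 with Delta4-Ig, against 5.29, 5.88 and 5.48 with control Ig. It was detected on no control Ig array and was at least 33.3-fold higher. Plac8, a small cysteine-rich protein gene, stood at 11.02, 11.35 and 13.16 with Delta4-Ig, against 6.81, 6.90 and 8.06 with control Ig. Mouse 2 was the brighter mouse with both stimuli for Plac8, and the difference was 4.72 ± 0.34 (adjusted p = 0.00469).

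Receptors for lipids and metabolites were among the rises. Lpar3, a lysophosphatidic acid receptor, stood at 7.95, 7.80 and 10.58 with Delta4-Ig, against 5.02, 4.91 and 4.85 with control Ig. Cysltr1, a receptor of cysteinyl leukotrienes, stood at 8.69, 8.68 and 9.30 with Delta4-Ig, against 5.18, 4.84 and 6.26 with control Ig. Ffar2, a receptor of short-chain fatty acids, stood at 8.34, 8.44 and 8.44 with Delta4-Ig, against 5.10, 4.88 and 5.66 with control Ig. In each of the 3 genes all Delta4-Ig arrays lay above all control Ig arrays, and no control Ig array detected Lpar3 or Ffar2. Lpar3 was at least 8.36-fold and Ffar2 at least 4.77-fold higher, and Cysltr1 rose by 3.36 ± 0.33 (adjusted p = 0.0104). Of 19 measured genes of this kind 3 rose and 0 fell, and 9 lay higher in both mice and 3 lower. Over all genes 0.602% rose and 0.397% fell, and 26.5% lay higher in both mice and 32.4% lower. P2ry14, a receptor of nucleotide sugars, differed by 2.01 ± 0.37 and did not pass (adjusted p = 0.0754). The list median was 0.26, and -0.24 among members detected on all 6 arrays. Outside this list 2 G protein subunit genes rose, Gnb5 by 2.96 ± 0.46 and Gngt2 by 2.96 ± 0.42.

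Chemokine receptors moved both ways. Ccr6, the receptor of CCL20 on helper cells, stood at 7.73, 7.91 and 6.97 with Delta4-Ig, against 11.40, 11.35 and 10.45 with control Ig. Cxcr4, the receptor of CXCL12, stood at 9.11, 9.10 and 10.28 with Delta4-Ig, against 5.83, 5.87 and 7.43 with control Ig. The 2 stimuli did not overlap for either gene. Ccr6 fell by 3.52 (SE 0.31, adjusted p = 0.00961) and Cxcr4 rose by 3.05 ± 0.32 (adjusted p = 0.0114). These were the only 2 of 12 measured chemokine and homing receptors to pass, where over all genes 0.602% rose and 0.397% fell. For adhesion, the hyaluronan receptor gene Cd44 stood at 9.33, 9.05 and 8.55 with Delta4-Ig, against 11.48, 11.53 and 11.15 with control Ig. It fell by 2.46 (SE 0.31, adjusted p = 0.0178) as the only one of 19 measured integrin and adhesion genes. Nrp1 (-1.84 ± 0.32, adjusted p = 0.0641) and Itgb1 (-1.38 ± 0.31, adjusted p = 0.123) had lower values on every Delta4-Ig array and did not pass. Cd44 is the activation marker by whose absence the naive cells were sorted.

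Timp1, an inhibitor of matrix metalloproteases, stood at 8.59, 9.99 and 11.44 with Delta4-Ig, against 6.13, 6.26 and 6.09 with control Ig. The technical arrays of mouse 1 differed by more than 1 log2 unit for Timp1, yet all Delta4-Ig arrays lay above the control Ig arrays. Gcnt1, which builds core branches of O-glycans, stood at 10.09, 9.72 and 10.75 with Delta4-Ig, against 6.37, 6.52 and 5.92 with control Ig. Lgals3, the gene of galectin-3, stood at 12.43, 12.65 and 13.91 with Delta4-Ig, against 8.78, 8.64 and 10.83 with control Ig. For Gcnt1 the 2 stimuli were well apart, and for Lgals3 mouse 2 was the brighter mouse with both. Timp1 rose by 4.22 ± 0.52, Gcnt1 by 4.15 ± 0.40 and Lgals3 by 3.45 ± 0.34. Adam19, a metalloprotease gene, rose by 3.17 ± 0.32 and Ecm1, an extracellular matrix protein gene, by 2.74 ± 0.44. Of 13 measured proteases and inhibitors 2 rose, of 16 glycosyltransferases 1 rose, and of 7 galectin genes 1 rose. The 3 lists held 0 falls, and over all genes 0.602% rose and 0.397% fell. Selenbp1, a selenium-binding protein gene, stood at 7.87, 8.43 and 11.84 with Delta4-Ig, against 4.99, 4.82 and 7.23 with control Ig. It rose by 3.93 ± 0.40, and whether its probe also binds the near-identical Selenbp2 was not tested.

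**Figure D2:**
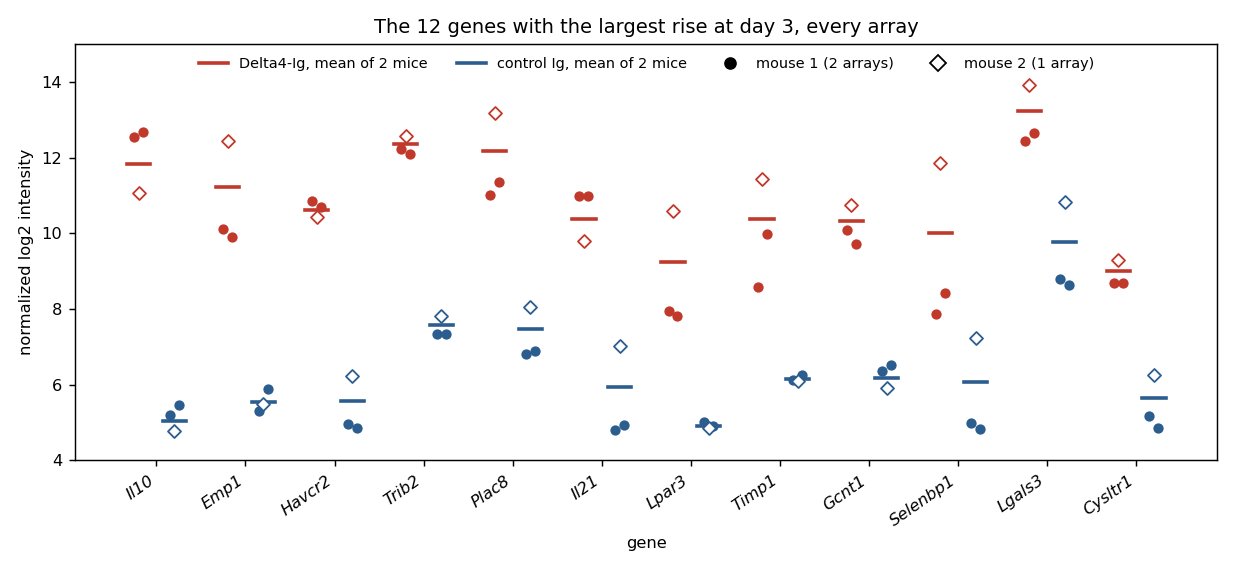
Normalized log2 intensity (y axis) on every day 3 array of the 12 genes with the largest rise (x axis), Delta4-Ig in red on the left and control Ig in blue on the right of each gene. Circles are the 2 arrays of mouse 1, diamonds the array of mouse 2 and bars the mean of the 2 mice, and for all 12 genes every red point lies above every blue point.

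Promoters of 4 of these genes are printed because they rose strongly and differ in whether the window holds the core of the RBPJ site. The letters searched were TGGGAA on both strands, and matches are in capitals. Each window runs from 250 bases before to 50 bases after a RefSeq start on GRCm38.p6, 5′ to 3′ along the gene.
Lpar3 (chr3:146220711-146221010, forward strand): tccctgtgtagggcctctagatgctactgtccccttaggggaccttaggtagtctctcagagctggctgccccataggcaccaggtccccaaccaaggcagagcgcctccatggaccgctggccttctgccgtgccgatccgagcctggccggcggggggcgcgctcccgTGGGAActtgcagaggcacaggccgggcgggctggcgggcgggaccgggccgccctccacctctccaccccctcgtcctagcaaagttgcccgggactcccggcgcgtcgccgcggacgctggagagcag
Timp1 (chrX:20869916-20870215, forward strand): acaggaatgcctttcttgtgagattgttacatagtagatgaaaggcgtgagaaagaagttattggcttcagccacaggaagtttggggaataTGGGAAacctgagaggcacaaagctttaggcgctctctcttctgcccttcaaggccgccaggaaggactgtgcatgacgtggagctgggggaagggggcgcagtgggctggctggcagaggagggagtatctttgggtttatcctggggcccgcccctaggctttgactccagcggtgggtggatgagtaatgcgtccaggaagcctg
Trib2 (chr12:15816736-15817035, reverse strand): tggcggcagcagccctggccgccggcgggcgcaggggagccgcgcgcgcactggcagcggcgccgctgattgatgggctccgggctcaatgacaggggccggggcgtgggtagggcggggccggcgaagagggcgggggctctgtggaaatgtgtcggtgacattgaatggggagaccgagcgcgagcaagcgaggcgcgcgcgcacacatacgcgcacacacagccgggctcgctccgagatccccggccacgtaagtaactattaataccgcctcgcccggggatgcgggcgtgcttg
Havcr2 (chr11:46454681-46454980, forward strand): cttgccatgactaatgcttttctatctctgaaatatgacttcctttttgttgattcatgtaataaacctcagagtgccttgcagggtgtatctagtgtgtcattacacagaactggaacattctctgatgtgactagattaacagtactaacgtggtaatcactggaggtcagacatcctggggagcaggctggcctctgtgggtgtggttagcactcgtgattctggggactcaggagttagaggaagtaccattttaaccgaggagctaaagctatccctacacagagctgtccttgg
Lpar3 has its match 80 bases and Timp1 158 bases before the start, while Trib2 and Havcr2 have none in these windows. The core was held by 14 (38.9%) of the 36 genes that rose and have a RefSeq window, and by 7 (31.8%) of the 22 that fell, against 28.3% of all 27025 genes. Of the 11 listed Notch targets with a window, measured or not, 3 (27.3%) held it. By window the shares were 34.5% of 58 and 25.8% of 31, against 25.6% of 32851. The letters CACGTG, an E-box, were in 3 of the 58 windows of genes that rose and 1 of the 31 of genes that fell, against 7.15% of all windows. A match describes the letters of the window and no binding.

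Regulators of cytokine and antigen receptor signalling were also among the rises. Socs3, a feedback inhibitor of cytokine receptors that signal through STAT3, rose by 2.84 ± 0.39. Bcl3, an atypical member of the I kappa B family, rose by 2.43 ± 0.31. Socs3 stood at 10.99, 11.06 and 12.55 with Delta4-Ig, against 7.55, 7.55 and 10.36 with control Ig. The control Ig array of mouse 2 came closest to the Delta4-Ig arrays without overlap. Of 20 measured genes of JAK-STAT feedback Socs3 and Bcl3 rose and 0 fell. In that list 8 lay higher in both mice and 2 lower, with a median of 0.29. Over all genes 0.602% rose and 0.397% fell, and 26.5% lay higher in both mice and 32.4% lower. Bcl3 was also the only one of 21 measured NF-kB genes to pass, and of these 4 lay higher in both mice and 9 lower, with a median of -0.17. Themis, a signalling protein of the T cell receptor pathway, rose by 1.97 ± 0.32 as the only one of 28 measured receptor complex and proximal signalling genes, of which 15 lay higher in both mice and 5 lower. Ier3, an early response gene, rose by 2.04 ± 0.31, while 12 of 25 measured immediate early and receptor-induced genes lay lower in both mice and 2 higher. Nr4a2, an orphan nuclear receptor of that list, had lower values on every Delta4-Ig array with a difference of -2.20 ± 0.40 that did not pass (adjusted p = 0.0723).

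The genes of the hypoxia response and of glycolysis lay mostly higher with Delta4-Ig, and few passed the threshold one by one. Ndrg1, a stress-response gene induced by hypoxia, rose and stood at 10.29, 10.74 and 13.12 with Delta4-Ig, against 7.92, 8.11 and 9.28 with control Ig. Aldoc, an aldolase of glycolysis, rose and stood at 9.48, 9.49 and 12.69 with Delta4-Ig, against 6.64, 6.68 and 9.16 with control Ig. Both genes were brighter in mouse 2 with either stimulus, and neither overlapped between the stimuli. The differences were 3.17 ± 0.40 for Ndrg1 and 3.18 ± 0.34 for Aldoc. Of 20 measured targets of hypoxia-inducible factor 1 rose, 0 fell and 17 lay higher in both mice and 1 lower, where over all genes 0.602% rose, 26.5% lay higher in both mice and 32.4% lower. The median was 0.95, at 0.87 in mouse 1 and 0.92 in mouse 2. Of 20 measured glycolysis genes 1 rose, 0 fell and 14 lay higher in both mice and 0 lower, with a median of 0.68. The prolyl hydroxylase gene Egln3 (2.41 ± 0.49, adjusted p = 0.097), the collagen hydroxylase gene P4ha2 (2.02 ± 0.35, adjusted p = 0.0621) and the glucose transporter gene Slc2a3 (1.45 ± 0.47, adjusted p = 0.325) did not pass. Pygl, which releases glucose units from glycogen, rose by 2.91 ± 0.46, and its mouse 1 Delta4-Ig arrays lay below the control Ig array of mouse 2. Over the 66 measured genes of oxidative phosphorylation the median was -0.03, close to that of all genes, and 0 passed.

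H2-Ab1, a class II histocompatibility chain, rose and stood at 10.72, 10.98 and 12.49 with Delta4-Ig, against 7.71, 7.86 and 10.12 with control Ig. Cd74, the invariant chain that escorts class II molecules, stood at 9.45, 9.60 and 7.50 with Delta4-Ig, against 10.93, 11.24 and 9.30 with control Ig. Within each mouse H2-Ab1 was higher and Cd74 lower with Delta4-Ig, and Cd74 did not pass (-1.68 ± 0.31, adjusted p = 0.0762). Of 6 B cell markers 5 were below detection on all 6 arrays, and Cd79b was detected on 1 Delta4-Ig array. By their brightest probes, none of 6 macrophage and dendritic cell markers was detected, but a second probe of Adgre1 was detected on control Ig arrays of mouse 1. The part of other cells in the class II values was not tested. H2-Ab1 rose by 2.72 ± 0.33 (adjusted p = 0.0163) as the only one of 16 measured genes of class II and antigen presentation. Of these 16 genes 3 lay higher in both mice and 9 lower, against 26.5% and 32.4% of all genes.

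The remaining rises had differences between 1.87 and 3.11. Undetected on all control Ig arrays were Pigz, a mannosyltransferase gene, Rab33a, a small GTPase gene (at least 4.73-fold higher), S100a6, a calcium-binding protein gene (at least 5.04-fold), and Hlx, a homeobox gene known in type 1 helper cells (at least 1.97-fold). The same held for Smtnl2, Frmd4b, the aquaporin gene Aqp9 and the cyclin O gene Ccno. Abi3 rose by 3.11 ± 0.31, the threonine aldolase gene Tha1 by 2.90 ± 0.31, the Wnt receptor gene Fzd7 by 2.75 ± 0.32 and the collagen receptor gene Ddr1 by 2.62 ± 0.39. Mcf2l rose by 2.43 ± 0.31 by its brightest probe, but a second probe differed by 0.04 and did not pass (0.29 in mouse 1 and -0.21 in mouse 2, adjusted p = 0.981). Smaller rises were those of Myl4 at 2.16, the lipid raft gene Flot1 at 2.13, the glutathione transferase gene Gstt1 at 1.94 and Rnf208 at 1.87. A further probe also missed the threshold for Pygl (2.15, adjusted p = 0.198), Gnb5 (2.68, adjusted p = 0.0592) and H2-Ab1 (1.81, adjusted p = 0.171). Each of these probes lay higher in both mice. The genes Gadd45g, Klhl6, Pkp2 and Sdcbp2 rose only by a probe other than their brightest. In all, 13 of the 44 genes were detected on no control Ig array and 17 on all 6 arrays.

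Idi2, which encodes an isopentenyl diphosphate isomerase, had the largest fall (probe ILMN_1216803). It stood at 5.90, 5.32 and 5.21 with Delta4-Ig, against 12.11, 12.01 and 9.39 with control Ig. No Delta4-Ig array detected it, and by this probe it was at least 26.5-fold lower with Delta4-Ig (adjusted p = 0.0104). Of its further probes, ILMN_2894900 differed by -4.30 (adjusted p = 0.0271). Probe ILMN_2689488 differed by -1.51 and did not pass (-2.60 in mouse 1 and -0.41 in mouse 2, adjusted p = 0.359). Of the 27 measured genes of cholesterol and fatty acid synthesis, Idi2 included, 12 lay higher in both mice and 4 lower. Over all genes these shares were 26.5% and 32.4%. In the list 1 fell and 0 rose, and the median was 0.21. The elongase gene Elovl6 differed by 1.15 ± 0.31 (adjusted p = 0.207) and the mevalonate pathway gene Mvd by 1.04 ± 0.38 (adjusted p = 0.42), and neither passed.

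Dapl1, a gene expressed in resting T cells, stood at 5.28, 6.02 and 5.83 with Delta4-Ig, against 9.96, 9.69 and 10.28 with control Ig. Its fall was nearly equal in the 2 mice (-4.18 in mouse 1 and -4.45 in mouse 2, adjusted p = 0.00469), and 1 Delta4-Ig array detected it. Dapl1 was the only one of 25 measured genes of naive and quiescent T cells to pass. In the list 7 lay higher in both mice and 8 lower, against 26.5% and 32.4% of all genes. Klf2, a quiescence factor of the same list, stood at 7.35, 7.29 and 10.11 with Delta4-Ig, against 6.70, 6.60 and 6.57 with control Ig. Il7r, the interleukin-7 receptor gene, differed by 1.55 ± 0.31 (adjusted p = 0.0927). Klf2 and Il7r thus had higher means with Delta4-Ig while Dapl1 fell.

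**Figure D3:**
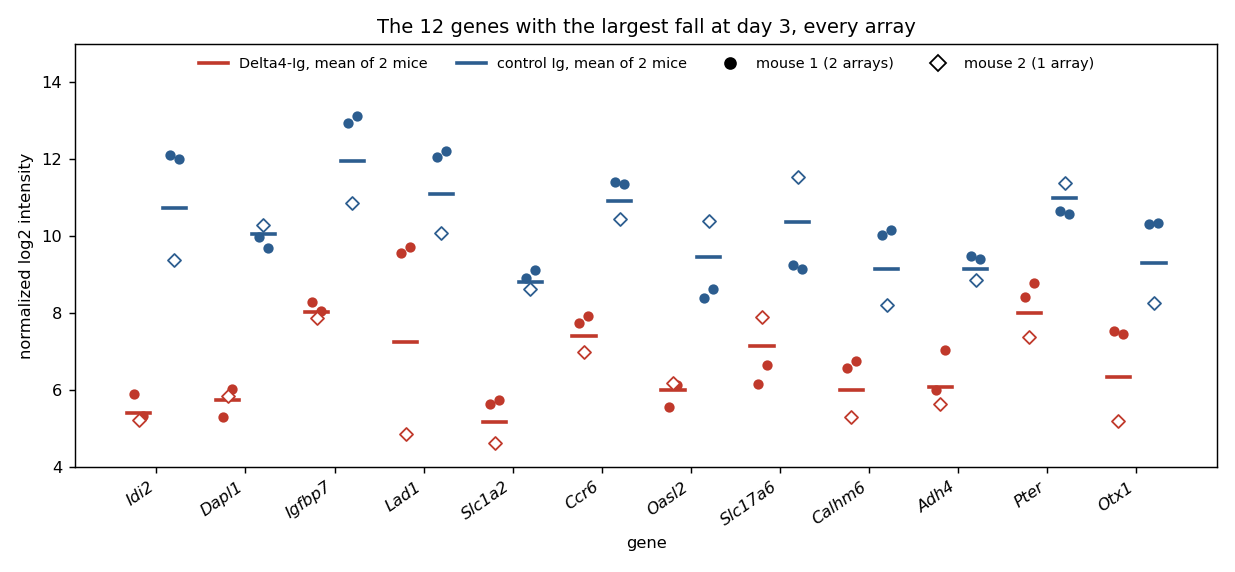
Normalized log2 intensity (y axis) on every day 3 array of the 12 genes with the largest fall (x axis), Delta4-Ig in red on the left and control Ig in blue on the right of each gene. Circles are the 2 arrays of mouse 1, diamonds the array of mouse 2 and bars the mean of the 2 mice, and for all 12 genes every red point lies below every blue point.

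Eomes, a T-box factor of cytotoxic and memory T cells, stood at 5.76, 4.99 and 5.48 with Delta4-Ig, against 8.30, 8.33 and 8.07 with control Ig. No Delta4-Ig array detected it, and it was at least 4.57-fold lower (adjusted p = 0.0143). It was the only one of 22 measured lineage factor genes to pass. Nfil3, a basic leucine zipper factor, differed by 2.30 ± 0.43 (adjusted p = 0.0771), with every Delta4-Ig array above every control Ig array. Of 8 measured granzyme and cytotoxic granule genes 0 passed, and the cathepsin W gene Ctsw had the largest difference at 0.68 in mouse 1 and 4.32 in mouse 2. On the Delta4-Ig array of mouse 2, where Ctsw was highest, Klrd1 was the only 1 of 3 NK cell markers detected.

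Members of the tumour necrosis factor family and costimulatory receptors fell in 3 of 17 measured cases, and 0 rose. Over all genes 0.397% fell and 0.602% rose. Tnfsf11, which encodes the cytokine RANKL, stood at 9.23, 9.12 and 7.35 with Delta4-Ig, against 11.41, 11.37 and 10.67 with control Ig. Tnfrsf13c, the gene of the BAFF receptor, stood at 5.06, 5.14 and 6.14 with Delta4-Ig, against 8.70, 9.12 and 8.21 with control Ig. Cd226, an activating receptor, stood at 8.01, 7.89 and 6.84 with Delta4-Ig, against 10.28, 10.22 and 8.78 with control Ig. None of the 3 overlapped between the stimuli. Tnfsf11 fell by 2.77 (SE 0.37), Tnfrsf13c fell by 2.94 (SE 0.45) and Cd226 fell by 2.12 (SE 0.32). In this list 8 genes lay lower in both mice and 4 higher, against 32.4% and 26.5% of all genes. The median was -0.55, at -0.98 in mouse 1 and -0.09 in mouse 2. It was -0.29 with the gene undetected under one stimulus at its bound. Cd70, another ligand of the family, was lower in both mice (-3.90 in mouse 1 and -0.57 in mouse 2) and did not pass.

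Interferon-stimulated genes lay lower with Delta4-Ig in both mice far more often than higher. Of 33 measured, 24 lay lower in both mice and 0 higher, where over all genes 32.4% lay lower and 26.5% higher, and 2 fell. Oasl2, an oligoadenylate synthetase-like gene, stood at 5.55, 6.12 and 6.17 with Delta4-Ig, against 8.39, 8.63 and 10.40 with control Ig. Usp18, a protease that removes the ubiquitin-like protein of the interferon response, stood at 6.71, 7.99 and 10.05 with Delta4-Ig, against 9.52, 9.49 and 12.49 with control Ig. For Oasl2 the 2 stimuli did not overlap, while for Usp18 the Delta4-Ig array of mouse 2 was brighter than the control Ig arrays of mouse 1. Oasl2 fell by 3.45 (SE 0.42, adjusted p = 0.0163) and Usp18 fell by 2.30 (SE 0.31, adjusted p = 0.0245). A further Usp18 probe differed by -1.50 and did not pass (-0.45 in mouse 1 and -2.55 in mouse 2, adjusted p = 0.347). Cmpk2 (-1.59 ± 0.31, adjusted p = 0.0855) and Bst2, the gene of tetherin (-1.21 ± 0.33, adjusted p = 0.214), lay lower on every Delta4-Ig array without passing. The list median was -0.53, at -0.66 in mouse 1 and -0.46 in mouse 2, beside -0.05 for all genes.

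The other large falls came from genes of varied function. Igfbp7, a secreted growth factor binding protein gene, stood at 8.29, 8.06 and 7.87 with Delta4-Ig, against 12.93, 13.13 and 10.87 with control Ig. Lad1, the ladinin gene, stood at 9.56, 9.73 and 4.85 with Delta4-Ig, against 12.06, 12.21 and 10.07 with control Ig. The glutamate transporter gene Slc1a2 stood at 5.62, 5.75 and 4.62 with Delta4-Ig, against 8.90, 9.12 and 8.62 with control Ig. Lad1 was close to background on the Delta4-Ig array of mouse 2 and clearly detected on those of mouse 1, and Slc1a2 was detected on no Delta4-Ig array, at least 7.04-fold lower. Igfbp7 fell by 3.93 (SE 0.46) and Lad1 fell by 3.86 (SE 0.59).

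Slc17a6, a vesicular glutamate transporter gene, stood at 6.16, 6.65 and 7.90 with Delta4-Ig, against 9.26, 9.15 and 11.55 with control Ig. Calhm6, of the calcium homeostasis modulator family, stood at 6.58, 6.76 and 5.30 with Delta4-Ig, against 10.04, 10.16 and 8.21 with control Ig. The alcohol dehydrogenase gene Adh4 stood at 5.995, 7.03 and 5.63 with Delta4-Ig, against 9.48, 9.41 and 8.86 with control Ig. All 3 were higher on each control Ig array than on any Delta4-Ig array. Pter, a phosphotriesterase-related gene, stood at 8.40, 8.79 and 7.38 with Delta4-Ig, against 10.65, 10.56 and 11.39 with control Ig. The homeobox gene Otx1 stood at 7.52, 7.46 and 5.19 with Delta4-Ig, against 10.32, 10.34 and 8.25 with control Ig. Pter fell by 3.01 (SE 0.48) and Otx1 fell by 2.95 (SE 0.31), again without overlap.

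Smaller falls included the RNA-editing deaminase gene Apobec1 (at least 4.89-fold lower), the activity-regulated gene Arc (at least 5.2-fold), Unc13b (at least 2.79-fold) and the diacylglycerol kinase gene Dgkk (at least 3.26-fold), each detected on all control Ig arrays and no Delta4-Ig array. The same pattern of detection held for the peptide gene Grp, Dclk1, Zbtb46 and 1700019D03Rik. Mlf1 (-2.27 ± 0.31), the histone gene H3c7 (-2.28 ± 0.35) and the adaptor gene Ticam2 (-2.02 ± 0.33) completed the 29. H3c7 belongs to a family of near-identical histone genes, so its value is uncertain. Of the 29 genes 11 were detected on no Delta4-Ig array and 9 on all 6 arrays.

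Genes of growth and division showed small shifts and 0 calls. DNA replication genes lay lower in both mice in 19 of 35 measured cases and higher in 0, where 32.4% of all genes lay lower and 26.5% higher. The counts were 19 lower of 33 against 5 higher for mitosis and spindle genes, and 21 of 35 against 0 for proteasome genes. Nucleolar and ribosome biogenesis genes lay lower in both mice in 21 of 35 cases and higher in 0. Their median was -0.74, but it was -0.10 in mouse 1 and -1.44 in mouse 2, the larger in the mouse whose Delta4-Ig array stood apart. Rrp9, a nucleolar protein gene, differed by -0.17 in mouse 1 and -2.15 in mouse 2 and nucleolin (Ncl) by -0.15 in mouse 1 and -2.13 in mouse 2. The DNA replication median was likewise -0.04 in mouse 1 and -0.51 in mouse 2. The 49 measured cytosolic ribosomal protein genes had a median of 0.00, and 0 of them passed. Tyms, thymidylate synthase, differed by -1.01 ± 0.39 (adjusted p = 0.444).

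**Figure D4:**
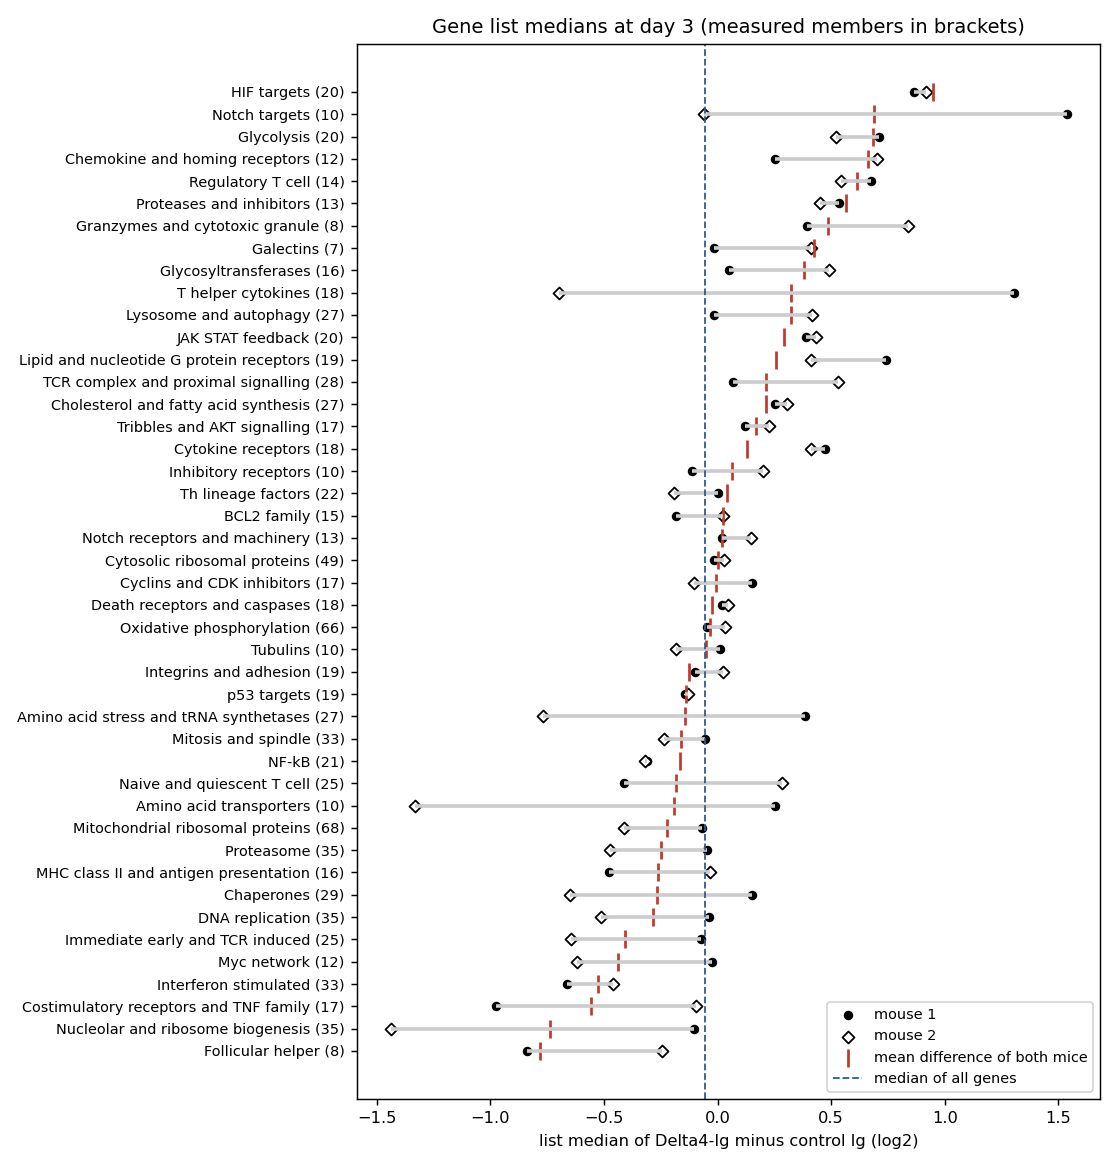
Median difference between Delta4-Ig and control Ig at day 3, in log2 units (x axis), for each gene list with at least 7 measured members (y axis, number of members in brackets). Filled circles are mouse 1, open diamonds mouse 2, red ticks the median of the mean difference and the dashed line the median of all genes at -0.05, and the 2 mice lie close together for hypoxia-inducible factor targets but far apart for T helper cytokines and nucleolar genes.

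Regulatory T cell genes leaned higher without a call. Of 14 measured genes 9 lay higher in both mice and 2 lower, against 26.5% and 32.4% of all genes. At least 2-fold in both mice, 4 were higher and 1 lower, and the differences of the members ran from -1.84 to 1.79. The median was 0.61 (0.36 with genes undetected under one stimulus at their bound). Izumo1r, the gene of folate receptor 4, stood at 7.42, 7.28 and 7.31 with Delta4-Ig, against 5.46, 5.87 and 5.42 with control Ig. It was detected on all Delta4-Ig arrays and no control Ig array, at 1.79 ± 0.31 (adjusted p = 0.0616). Gpr83, an orphan receptor gene, differed by 1.68 ± 0.32 (adjusted p = 0.0802). Of 8 measured genes of follicular helper cells Il21 rose, 3 lay higher in both mice and 5 lower. The costimulator gene Icos differed by 1.65 ± 0.32 (adjusted p = 0.0855) and Sh2d1a, the gene of the adaptor SAP, by -1.43 ± 0.38 (adjusted p = 0.203). Among 18 measured cytokine receptor genes 0 passed, and the decoy receptor gene Il1r2 had the largest difference (1.52 in mouse 1 and 5.04 in mouse 2).

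By size alone, without a test, 159 of 7311 genes (2.17%) were at least 2-fold higher with Delta4-Ig in both mice and 88 (1.2%) at least 2-fold lower. In mouse 1 the counts were 294 higher and 243 lower, and in mouse 2 they were 632 and 716. By detection alone, 50 genes (0.684%) were detected on all 3 Delta4-Ig arrays and no control Ig array, led in brightness by Il10, Emp1, Lpar3, S100a6, Ffar2 and Rab33a. The opposite held for 21 genes (0.287%), led by Idi2, Slc1a2, Arc, Apobec1, Eomes and the potassium channel gene Kcnk10. Kcnk10 was at least 4.09-fold lower with Delta4-Ig and did not pass the test (adjusted p = 0.0833).

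Day 1 has 1 sample per stimulus, from mouse 1, so it gives values and no test of its own. Of the 73 genes that rose or fell at day 3, 36 were detected in neither day 1 sample, Il10, Il21 and Havcr2 among them. Of the other 37, 8 differed at least 2-fold in the same direction at day 1. The matching shares over all genes were not counted, so neither count is read as particular to these genes. At day 1 Trib2 was 1.68 log2 units higher with Delta4-Ig than with control Ig, where it stood at 10.32. Plac8 stood at 9.22 with Delta4-Ig and 5.98 with control Ig and Lpar3 at 7.79 with Delta4-Ig and 5.00 with control Ig. The Trib2 level with Delta4-Ig was close to that of mouse 1 at day 3, whereas the level with control Ig was about 3 log2 units above that of mouse 1 at day 3. Adam19, Emp1 and Myl4 were the other rises, and Dapl1 and Oasl2 the falls, that had reached this size at day 1. A limma contrast of the day 3 difference minus the day 1 difference called 0 of 10381 probes (0%), with 361 at an unadjusted p under 0.05 and the smallest adjusted p of 0.0848 for Il10. That contrast assumes that day 1 samples vary like those of day 3, and mouse 2 enters its day 3 side only, so the count of 0 does not show that the days are alike.

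**Figure D5:**
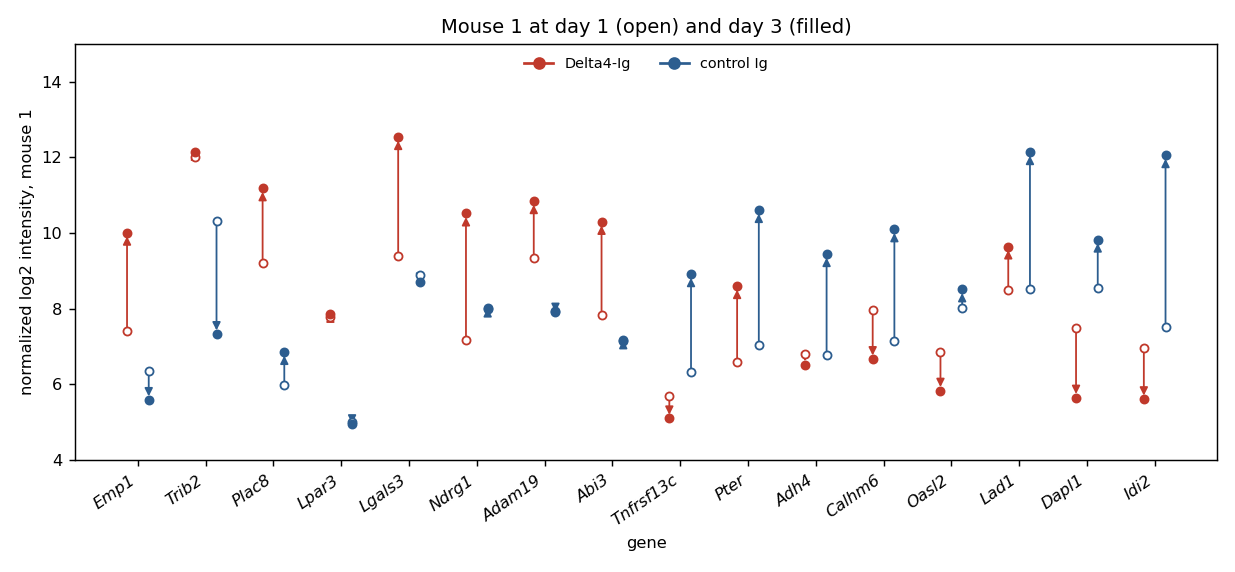
Normalized log2 intensity (y axis) in mouse 1 at day 1 (open circles) and day 3 (filled circles, mean of 2 arrays) for the 8 genes with the largest rise and the 8 with the largest fall among those detected at day 1, Delta4-Ig in red on the left and control Ig in blue on the right. Trib2 keeps its level with Delta4-Ig and drops with control Ig, whereas Idi2 and Lad1 gain signal with control Ig between the days.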

How the data were processed

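RNA from naive CD4+ T cells was measured on Illumina mouse arrays. The table of linear intensities and detection p-values that the authors deposited is not normalized, and they deposited a second table of log2 values whose scale is not stated. Set against neqc of limma 3.58.1 (R 4.3.3, offset 16), run on the deposited intensities, the deposited log2 values differed by at most 0.0417, so they were read as background-corrected, quantile-normalized log2 intensities. Their column median was 5.28 on each array. The submitters' processing notes name GenomeStudio and limma and give neither a version nor a step.

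Of 25697 probes, 23978 have 1 gene symbol, 0 have several and 1719 are unnamed here. Probes with a detection p-value under 0.01 on at least 2 of the 6 arrays were tested. Technical arrays were averaged, and lmFit and eBayes were fitted to the 4 samples with the mouse as a block (1 residual and 6.26 prior degrees of freedom), with Benjamini-Hochberg adjustment over 10381 probes and a threshold of 0.05. The labels number the animals, and the mouse 2 minus mouse 1 deviations correlated at 0.615 between the stimuli over probes. Nothing in the labels says whether an animal's cultures were replicated, so p-values refer to these samples only. With 1 residual against 6.26 prior degrees of freedom, SEs and p-values rest mostly on a variance shared over the tested probes. Data of the same size were simulated with normal noise, a residual spread drawn from the fitted prior and a shift for mouse 2 shared by both stimuli. There 74 of 100 probes changed by 2 log2 units and 100 of 100 changed by 4 were recovered, with 11 false calls. No simulated array stood apart, so these counts hold for that setting and do not give the recovery in the measured data. The number of arrays limits the precision.

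The text gives array values for the 12 largest rises and falls, names any gene past the threshold, and names up to 4 members per list: those past the threshold and the largest same-way differences. Also named are the 8 genes with the largest opposite differences in the 2 mice, the 6 brightest genes detected with one stimulus only in each direction, and cell type markers. Values by array of many further genes were added after they had been seen, so the choice of those genes followed the data. The 53 gene lists held 1326 genes, of which 912 were measured. Members and lists were chosen with earlier results of these data known. Promoter windows come from RefSeq (GRCm38.p6). Hey1 and Il10 are not shown. Alternatives covered the block, background correction, offset, scaling, detection filter, technical arrays, prior trend, probe choice, fold cutoff and each mouse alone, the last for called genes chosen after seeing the data.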

Additional observations from a re-analysis of the deposited data

How the results depend on the processing

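Against 58 probes higher and 37 lower with Delta4-Ig, with no replicate block, which drops the pairing, limma called 0 and 0 (298 at an unadjusted p under 0.05), with the adjusted p of the 73 genes between 0.346 and 1.00. No detection filter, which adds undetected probes, gave 0 and 0 (1672 unadjusted), and no background correction 1 and 0 (898 unadjusted), where the 73 differences shrank to a median of 64.5% of their size. An offset of 50 gave 35 and 18, detection on all 6 arrays 19 and 9, 75th percentile scaling 208 and 104, the technical arrays of mouse 1 alone 150 and 70, and a prior trend 92 higher. The mean of all detected probes of a gene called 29 genes higher, against 44. Genes at least 2-fold the same way in both mice, 159 higher and 88 lower, became 66 and 41 without background correction, 81 and 48 with detection on all 6 arrays, 379 and 227 at a cutoff of 1.5-fold, and 50 and 33 at 3-fold. Of the 73 genes 41 (24 that rose and 17 that fell) were called under each of 6 alternatives. These were neqc, an offset of 50, 75th percentile scaling, each array set of mouse 1 alone and a prior trend. Alternatives that dropped genes, averaged probes or called almost no probe were left out of this count, with their outcomes known. Without the mouse block or without the detection filter 0 of the 73 stayed called, so none held throughout. Detection on all 6 arrays kept 25 of 26 and the mean of probes 49 of 73. Among the single genes followed, Cd3g turned sign, at 0.0013 with the first arrays of mouse 1 alone, and with detection on all 6 arrays some list medians did, among them Notch targets at -0.32 and lipid receptors at -0.24. The causes were not tested. With 2 mice per stimulus, 1 of them with an array that stands apart, and about 3 in 5 probes below detection on each array, differences of genes near background are limited by signal.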
